A study of Mus musculus with 12 samples.

Results

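The Hoxd cluster on mouse chromosome 2, with its neighbour Evx2, was described through the sites of H3K27me3 that lie in and around it. The members were all listed sites that overlap the interval from 100 kb before Evx2 to 100 kb after Hoxd1 (chr2:74552991-74865142 in mm10). The members were thus selected on the called sites themselves, and where those sites lie is given as a description. The rule gave 28 of the 101389 sites of the list, and the 10 genes Evx2, Hoxd13, Hoxd12, Hoxd11, Hoxd10, Hoxd9, Hoxd8, Hoxd4, Hoxd3 and Hoxd1 were read against them. H3K27me3 is the trimethylation of lysine 27 of histone H3. It was measured by chromatin immunoprecipitation and sequencing (ChIP-seq) in iMEF cells, which are immortalized mouse embryo fibroblasts.

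There were 8 H3K27me3 libraries, 2 each from cells without dTAG and from cells given dTAG for 16 h, 24 h or 48 h, and 4 input libraries from untreated cells and from cells at 48 h. All of these cells, the untreated ones included, carried endogenous Ash2l alleles from which a floxed exon had been deleted with a tamoxifen-inducible Cre recombinase, and lived on a lentiviral FKBP12F36V fusion of human ASH2L. ASH2L is a core component of the KMT2 methyltransferases, which act on lysine 4 of the same histone, and dTAG directs the fusion protein to degradation. The ChIP-seq experiments were done on cells of 1 clone. The deposited list gives the position of each site over all samples joined, with no value for any library or time. Changes with dTAG, replicate error and depth were therefore not analysed here, and the identity of the cells could not be checked against marker genes from this list. A base is called covered where it lies inside a listed site, and the lack of a site does not show that the mark is absent.

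Hox genes encode homeodomain transcription factors that assign positional identity along the body axis and in the limbs. They lie in 4 clusters, and within a cluster the genes are ordered by paralog group, so that genes with low group numbers are used anteriorly and early and those with high numbers posteriorly and late. Polycomb repressive complex 2 writes H3K27me3 over Hox genes that are held silent, often as a broad domain, and fibroblasts are known to keep a Hox pattern that reflects the place in the body from which they came. On chromosome 2 the cluster runs from Hoxd13 at the lower coordinates to Hoxd1 at the higher ones, all transcribed in that direction. Evx2, a relative of the fly gene even-skipped, precedes Hoxd13 and is transcribed in the opposite direction.

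The sequences of 6 promoters are shown because they span the passage from genes without sites to genes inside a broad site. Each runs 5′ to 3′ over 300 bases, most of them upstream of the RefSeq start (build GRCm38.p6, plus strand), and capitals mark CpG dinucleotides, which are dense at most Polycomb targets in mammals. Hoxd13 (chr2:74667975-74668274) and Hoxd9 (chr2:74697513-74697812) lie in the uncovered part. The promoter of Hoxd8 (chr2:74704365-74704664) ends 49 bp before the first site of the cluster. Those of Hoxd3 (chr2:74711743-74712042) and Hoxd4 (chr2:74721728-74722027) lie in holes between sites, and that of Hoxd1 (chr2:74762730-74763029) lies inside the widest site.
Hoxd13: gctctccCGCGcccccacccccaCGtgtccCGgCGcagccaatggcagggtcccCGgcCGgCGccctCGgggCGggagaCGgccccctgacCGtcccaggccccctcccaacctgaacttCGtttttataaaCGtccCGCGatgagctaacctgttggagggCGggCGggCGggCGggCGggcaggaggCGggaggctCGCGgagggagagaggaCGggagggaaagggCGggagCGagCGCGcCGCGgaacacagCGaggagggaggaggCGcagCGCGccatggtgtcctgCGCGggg
Hoxd9: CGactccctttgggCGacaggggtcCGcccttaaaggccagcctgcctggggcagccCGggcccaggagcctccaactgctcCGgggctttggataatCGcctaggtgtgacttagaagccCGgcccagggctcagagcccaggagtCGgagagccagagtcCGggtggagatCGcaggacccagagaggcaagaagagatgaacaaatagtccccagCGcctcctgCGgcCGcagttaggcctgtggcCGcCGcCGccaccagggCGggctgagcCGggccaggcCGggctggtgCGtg
Hoxd8: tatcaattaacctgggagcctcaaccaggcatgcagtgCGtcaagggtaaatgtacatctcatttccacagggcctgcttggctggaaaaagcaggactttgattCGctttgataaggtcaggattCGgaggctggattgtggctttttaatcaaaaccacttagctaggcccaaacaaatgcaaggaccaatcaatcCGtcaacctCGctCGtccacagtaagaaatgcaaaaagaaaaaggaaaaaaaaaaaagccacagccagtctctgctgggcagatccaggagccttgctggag
Hoxd3: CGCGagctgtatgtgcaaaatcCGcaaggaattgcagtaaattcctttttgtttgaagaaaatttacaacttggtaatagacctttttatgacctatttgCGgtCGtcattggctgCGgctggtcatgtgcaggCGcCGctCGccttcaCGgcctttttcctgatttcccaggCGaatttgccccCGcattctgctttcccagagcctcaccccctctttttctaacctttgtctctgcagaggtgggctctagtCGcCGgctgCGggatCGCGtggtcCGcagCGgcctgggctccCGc
Hoxd4: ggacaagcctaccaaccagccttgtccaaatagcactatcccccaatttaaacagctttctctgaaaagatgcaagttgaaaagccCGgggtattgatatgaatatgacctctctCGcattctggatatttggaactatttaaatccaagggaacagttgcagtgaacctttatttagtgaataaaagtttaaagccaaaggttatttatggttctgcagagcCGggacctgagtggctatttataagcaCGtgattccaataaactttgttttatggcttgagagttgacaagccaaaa
Hoxd1: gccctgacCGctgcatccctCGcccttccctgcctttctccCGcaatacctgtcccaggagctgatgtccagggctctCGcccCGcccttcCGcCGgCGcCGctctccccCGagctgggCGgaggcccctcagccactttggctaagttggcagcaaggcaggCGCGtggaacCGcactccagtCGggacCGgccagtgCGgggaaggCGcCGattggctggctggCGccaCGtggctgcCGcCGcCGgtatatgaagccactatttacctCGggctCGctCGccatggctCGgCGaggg

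All 10 genes matched a RefSeq promoter, 11 entries in all because Hoxd11 has 2. Of the 11 entries, 1 had a covered base, that of Hoxd1, and it was covered over all of its 300 bases. Of the 32619 RefSeq promoters on chromosomes 1 to 19 and X, 18.5% had a covered base and 15.5% were covered throughout. The promoter with the most CpGs, Hoxd13 with 37, had none of its bases covered, although 94.4% of all RefSeq promoters held fewer CpGs. Hoxd1 had 29 CpGs, Hoxd3 and Hoxd9 had 20 each, Hoxd8 had 6 and Hoxd4 had 4.

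The data split the cluster into an uncovered end with the genes of groups 9 to 13, a passage with short sites over Hoxd8 and Hoxd4, and a covered end with Hoxd3 and Hoxd1. Over the span from Hoxd13 to Hoxd1 (chr2:74668310-74765142, 96.8 kb) sites covered 45.7% of bases, against 8.74% of the bases of chromosome 2 outside assembly gaps. From Hoxd13 to the end of Hoxd9 the covered share was 0%, and from Hoxd8 to Hoxd1 it was 73.1%. Over the whole interval of 312.2 kb it was 29.0%. The flank before Evx2 had a covered share of 0.249% and the flank after Hoxd1 one of 46.1%, so that sites continued beyond the cluster on the Hoxd1 side and nearly ceased on the Evx2 side.

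**Figure D1:**
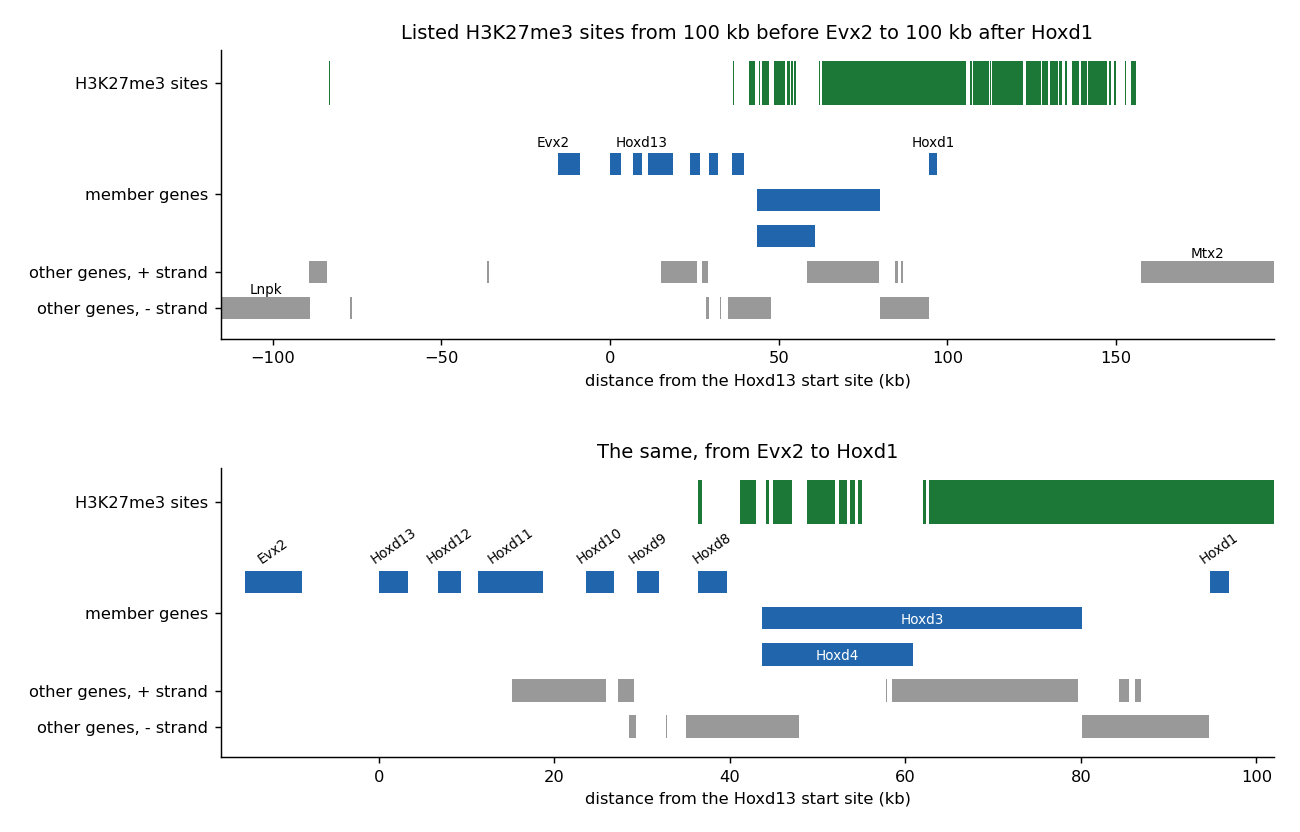
Listed H3K27me3 sites (green), the 10 member genes (blue) and other annotated genes (grey) by their distance in kb from the Hoxd13 start site, over the whole interval (top) and from Evx2 to Hoxd1 (bottom). The genes from Evx2 to Hoxd9 have no site, short sites begin at Hoxd8, and a site of 42865 bp holds Hoxd1 and the coding part of Hoxd3.

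No edge of H3K27me3 lay at Evx2. This gene (chr2:74652991-74659557) sat within an uncovered stretch of 119.5 kb, from 74585255 to 74704712, which also held Hoxd13, Hoxd12, Hoxd11, Hoxd10 and Hoxd9. Its nearest start site was 45156 bp from the closest site, on the Hoxd8 side, and 67737 bp separated the other end of the gene from the single small site before it. That small site (chr2:74585006-74585254, 249 bp) lay outside any annotated gene. Of the 101285 gaps between neighbouring sites on chromosomes 1 to 19 and X, 3.81% were longer than this stretch. The edge nearest to the uncovered genes was at Hoxd8 and rested on 1 site of 392 bp. The name of an Evx2 boundary was thus not borne out by these sites.

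Each of the 5 genes of groups 9 to 13 was without a covered base. Hoxd13 (chr2:74668310-74671599), which patterns digits and external genitalia, had its start 36403 bp from the nearest site. Hoxd12 (chr2:74675013-74677705), a further limb patterning gene, was 29700 bp away. For Hoxd11 (chr2:74679557-74687016), which acts with Hoxa11 in the forearm and kidney, the nearest of 2 starts was 22390 bp away. Hoxd10 (chr2:74691924-74695105), a gene of hindlimb motor neurons, was 12789 bp away, and Hoxd9 (chr2:74697727-74700208) was 6986 bp away. These distances shrink along the chromosome because all 5 genes have the same nearest site, the one at Hoxd8.

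Among the 10 genes, 4 had a site within 1 kb of the start of any annotated transcript, namely Hoxd8, Hoxd4, Hoxd3 and Hoxd1. The background over 21755 protein-coding genes of chromosomes 1 to 19 and X was 26.9%. The nearest gene outside this window was Hoxd9 at 6986 bp. Since these genes were taken up with results of the same list known, and neighbouring genes share sites, this count is a description. A start inside a site was found for 3 of the 10 genes (background 21.4%), Hoxd4 being the one that dropped out. At least 50% of the window of 1 kb on either side of a start was covered for 3 (background 20.3%), Hoxd8 being the one below. Some base of the gene body was covered for 4 (background 30.6%). Among the 10, Hoxd1 alone was covered over its whole body, which was so for 2.79% of all protein-coding genes. Beneath the equal count of a nearby site, the 4 genes differed in which of their parts were covered.

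Hoxd8, a trunk gene, had covered bases only in parts of its first exons and in the intron between them. The gene (chr2:74704615-74707933) met 1 site (chr2:74704713-74705104, 392 bp), which began 98 bp after its first start and contained the start of 1 of its 3 transcripts. Thus 11.8% of the gene body and 7.73% of its exon bases were covered. All 212 covered exon bases were untranslated, and 0 of the 867 coding bases were covered. From the end of this site to the next one 4333 bp were uncovered, which took in the remainder of the gene.

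Hoxd4, which specifies cervical vertebrae and the hindbrain, had 7 sites in its body but none over its coding sequence. The annotated gene (chr2:74711929-74729160) was 44.1% covered, mostly in introns, of which 52.0% was covered against 6.17% of exon bases. Of its 750 coding bases 0 were covered. Both coding exons lay in a hole of 6963 bp between the sites that end at 74723388 and begin at 74730352. The start of the shortest coding transcript, at 74727074, was 3278 bp from a site, whereas the upstream coding start at 74721978 was 54 bp from one and that of the long non-coding transcript, at 74711929, was 517 bp from one. The call of a site near a start therefore rested on the upstream starts of Hoxd4.

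The same hole contained Mir10b (chr2:74726070-74726137), a microRNA gene of the cluster whose 68-base hairpin was uncovered, 2682 bp from the site before it and 4215 bp from the site after it. Its paralog Mir10a lies in the Hoxb cluster (chr11:96317165-96317274), and all 110 bases of that hairpin were covered. The mature products are shown because microRNAs of the same seed were found on either side of the difference in coverage. They come from RefSeq (GRCm38.p6), capitals mark the seed, bases 2 to 8, and the strands agree at 22 of 23 positions.
mmu-miR-10b-5p: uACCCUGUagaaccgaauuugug
mmu-miR-10a-5p: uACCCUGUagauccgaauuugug

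Hoxd3, a gene of the first cervical vertebrae, was covered over its coding sequence and uncovered at its far upstream start. Its annotated body (chr2:74711927-74748442) overlaps that of Hoxd4 and was 69.4% covered by 9 sites. All 1363 coding bases and 90.7% of exon bases were covered. Of the 6 exon blocks, 5 were covered throughout, and the first, 390 bp of untranslated sequence, had no covered base. The starts of 5 of its 6 transcripts lay inside a site, and the remaining one, at 74711927, was 519 bp from one. Gm28230, annotated as a coding gene over the same stretch, was 81.2% covered but had no site within 1 kb of its start.

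Hoxd1, which shapes pain-sensing neurons in the mouse, was covered at every base. The gene (chr2:74762980-74765142), its 984 coding bases and the window of 1 kb on either side of its start all lay inside the widest site of the interval (chr2:74731038-74773902, 42865 bp), which began 31942 bp before Hoxd1 and ended 8760 bp after it. Haglr, a long non-coding RNA transcribed away from Hoxd1 at the shared promoter, was covered over all of its 14475 bp. The non-coding genes Gm14424 and Gm14426 were also wholly inside. Of the 101389 listed sites, 75 were wider than this one.

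**Figure D2:**
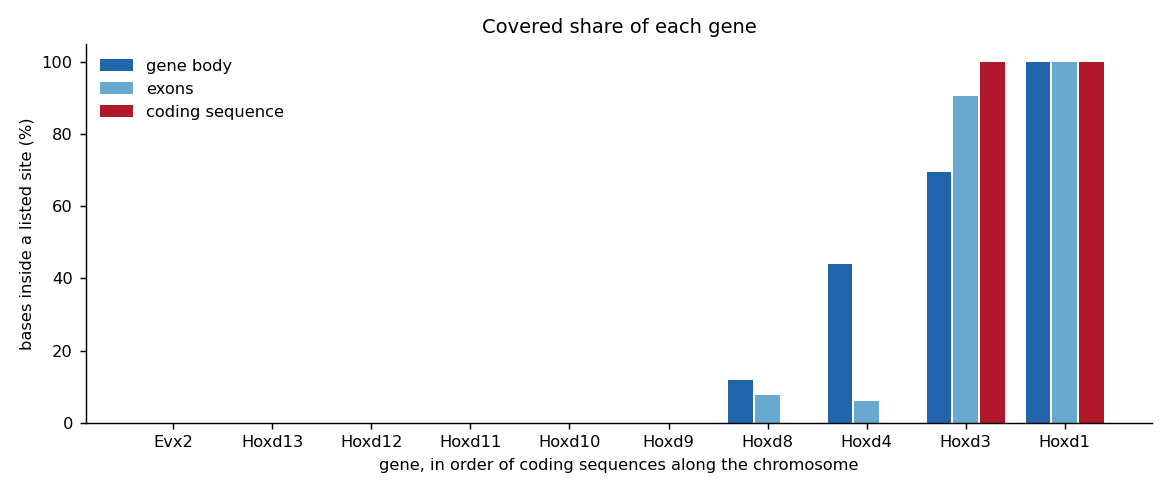
Percentage of bases inside a listed site for the body, the exons and the coding sequence of each member gene, in the order of the coding sequences along the chromosome. The 6 genes from Evx2 to Hoxd9 are at 0%, Hoxd8 and Hoxd4 have covered bases but no covered coding base, and the coding sequences of Hoxd3 and Hoxd1 are at 100%.

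Coding sequence thus divided the 4 genes with a nearby site into Hoxd8 and Hoxd4 at 0% and Hoxd3 and Hoxd1 at 100%. Over the 5848 protein-coding genes with a site within 1 kb of a start, 20.7% had no covered coding base and 20.4% had all of them covered. Neither state was therefore rare in the list.

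Of 27 annotated genes of any kind in the interval, 17 were not members. Among these 17, 4 had a site within 1 kb of a start (Haglr, Gm14424, Gm14426 and Hoxd3os1) and 12 had no covered base. Haglr, Gm14424 and Gm14426 lie in the same site, the widest. The share over all annotated genes of any kind was not computed, so these counts are a description. Hoxd3os1, an antisense RNA that starts in the first intron of Hoxd3 and runs past Hoxd8, was 36.4% covered. Lnpk, which shapes the endoplasmic reticulum and borders the cluster beyond Evx2, had no covered base. Mtx2, a gene for mitochondrial protein import that borders it beyond Hoxd1, had none either.

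The 28 sites ranged from 200 to 42865 bp in width, with a median of 1010.5 bp against 676 bp in the whole list. The widest site held 47.3% of the covered bases. The next widest was 9254 bp (chr2:74781476-74790729), and 9 sites were narrower than 500 bp. From Hoxd8 to the widest site, 10 sites covered 38.6% of 26.3 kb. Beyond the widest site, 16 sites covered 74.3% of the 50.3 kb up to the last one. This stretch, cut at the last site, was more densely covered than the one over Hoxd8 and Hoxd4. The whole flank after Hoxd1, which the widest site enters, was 46.1% covered. Of the 27 gaps between neighbours 18 were under 1000 bp, the smallest being a single base between the sites that end at 74719583 and begin at 74719585. Because the list joins samples by a rule that is not given, such gaps do not show separate domains.

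**Figure D3:**
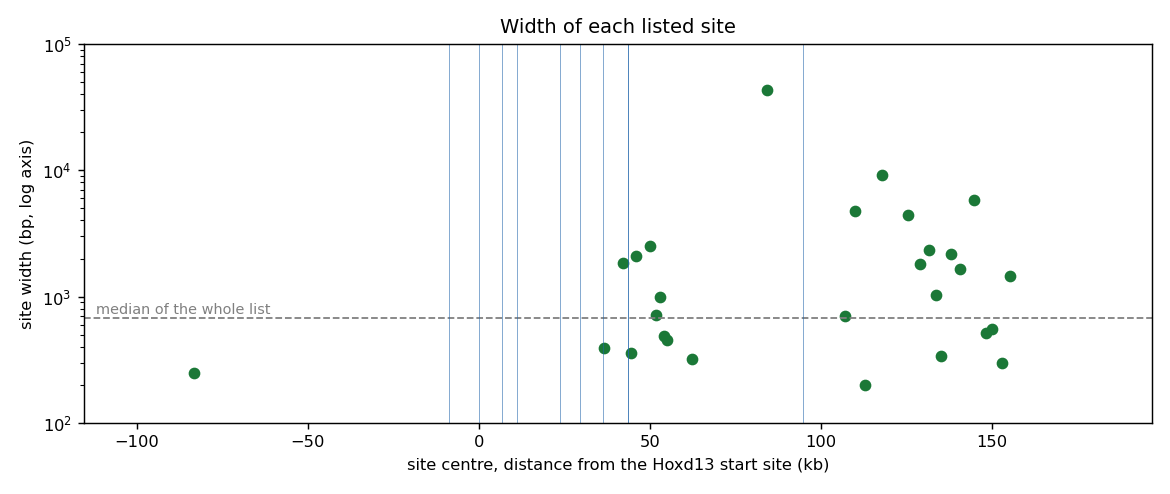
Width of each of the 28 sites in bp (log axis) against the distance of its centre from the Hoxd13 start site in kb. Vertical lines mark the starts of the member genes and the dashed line the median of the whole list, 676 bp; the site of 42865 bp stands apart from all others, the next being 9254 bp.

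The covered part ended on the far side just before Mtx2. The last site (chr2:74822724-74824174, 1451 bp) stopped 1629 bp before the start of this gene. An uncovered stretch of 73.8 kb followed, which held all of Mtx2, and the first site beyond it (chr2:74897994-74898364) lay 32852 bp outside the interval. On the Evx2 side the first site outside (chr2:74493740-74494063) was 58928 bp from the limit. A shift of either limit by less than these distances would add no site.

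Between Evx2 and Hoxd1, CpG density, which the choice of members did not use, was higher in the uncovered end than in the covered one. From Evx2 to the first site at Hoxd8 there were 33.8 CpGs per kb and a ratio of observed to expected CpGs of 0.547. Covered bases from there to the end of Hoxd1 had 22.9 CpGs per kb and a ratio of 0.389, and the uncovered bases among them 29.5 CpGs per kb and 0.483. Over the whole interval, flanks included, covered and uncovered bases had 15.5 and 15.2 CpGs per kb and ratios of 0.296 and 0.342. Over all of chromosome 2, which had 8.53 CpGs per kb, covered bases had the higher density, with a ratio of 0.222 in covered and 0.188 in uncovered bases. Outside masked repeats the chromosome had 14.5 CpGs per kb in covered and 9.09 in uncovered bases. GC content was alike in the uncovered end (49.7%) and the covered bases (48.6%). The share of masked repeats, 14.5% and 14.3%, was alike too and lay below the 31.5% of the chromosome. Bases of 1 locus are not replicates, so no test was made.

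CpG islands, stretches of high CpG content that mark many promoters, were found in the sequence of both ends. From Evx2 to the first site there were 11 islands, and 0 of them overlapped a site. This was fixed beforehand, since that part ends where the first site begins. From the first site to the end of Hoxd1 there were 9 islands, of which 7 overlapped a site. Over chromosome 2, 387 of 1311 islands did so, or 29.5%. Both parts were cut at a site, unlike the chromosome, so their counts are a description. The island at Hoxd8 (chr2:74704728-74706004) was the only one of the 22 in the interval that was covered in part, over 377 of its 1277 bp. The 6 islands from the upstream exons of Hoxd3 inside the widest site to Hoxd1 were covered throughout, and those at the far upstream start of Hoxd3 and in the coding exon of Hoxd4 were uncovered. Islands at the starts of Lnpk and Mtx2 were uncovered as well.

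**Figure D4:**
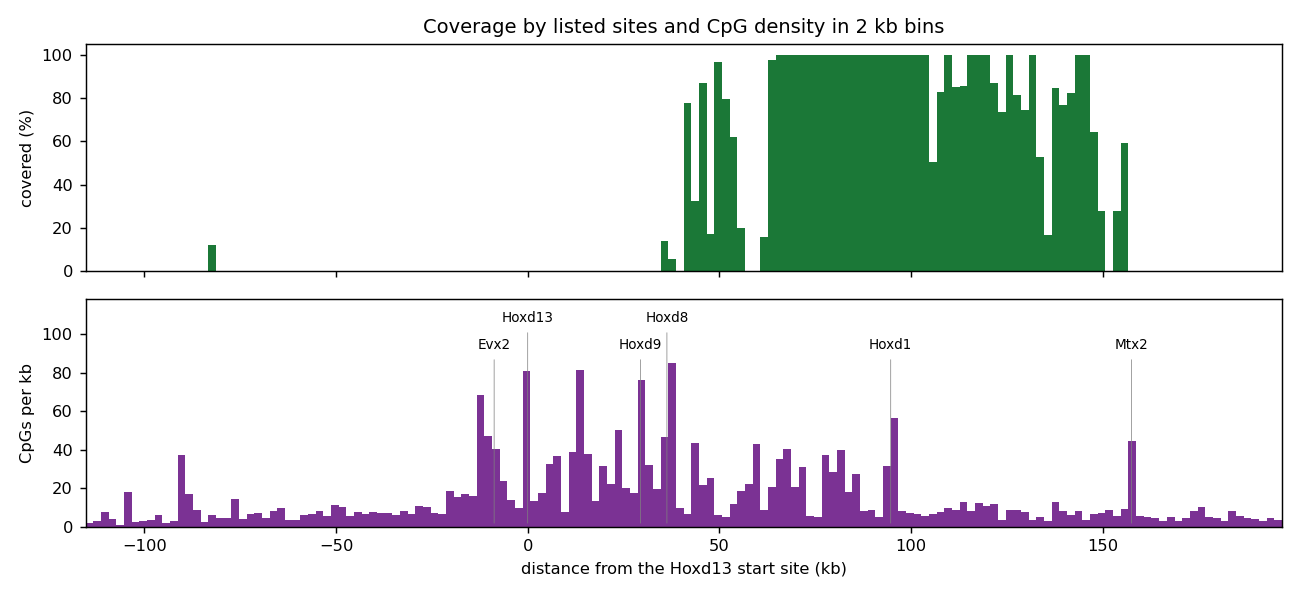
Share of bases inside a listed site (top, percent) and CpGs per kb (bottom) in bins of 2 kb, by distance from the Hoxd13 start site in kb. The bins from Evx2 up to the one with the first site at Hoxd8 have no covered base and hold 7.5 to 81.5 CpGs per kb, and many bins after Hoxd1 are covered at a lower CpG density, 7.38 per kb over that flank.

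The flanks were poorer in CpGs than the cluster. The one after Hoxd1 had 7.38 CpGs per kb, below the average of the chromosome, and was 46.1% covered. The flank before Evx2 had 7.85 CpGs per kb and was 0.249% covered.

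The other Hox clusters were read in the same way only to place Hoxd among them, without a test, since loci are not replicates. Of the 4 clusters, Hoxd was the one that held both wholly covered and uncovered genes. Hoxb (chr11:96194316-96368256) and Hoxc (chr15:102921103-103036852) had all genes wholly covered, 10 and 9. In Hoxa 10 of 11 genes had no covered base, and the exception, Hoxa3, was 8.94% covered with 0 of its 1329 coding bases. Of the 9 Hoxd genes, 5 had no covered base and 1 was wholly covered.

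By paralog group, the 5 Hoxd genes of groups 9 to 13 were uncovered like the 4 of Hoxa, whereas the 2 of Hoxb and the 5 of Hoxc were wholly covered. For groups 1 to 8, with bases shared by overlapping genes counted once, 66.4% of the gene body bases of the 4 Hoxd genes were covered, against 6.97% of those of the 7 Hoxa genes and 100% in Hoxb and Hoxc. Group 4 was covered over all coding bases in Hoxb4 and Hoxc4 and over none in Hoxa4 and Hoxd4. Group 3 was covered over all coding bases in Hoxb3 and Hoxd3 and over none in Hoxa3.

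The Evx genes differed from each other. Evx1 (chr6:52313498-52318378), which lies beyond Hoxa13 (chr6:52257694-52260880), was covered over all of its 4881 bp and its 1248 coding bases. Hoxa13 was uncovered. The distance between Evx1 and Hoxa13 is longer than that between Evx2 and Hoxd13. Evx2 had 0 of 6567 bp and 0 of 1425 coding bases covered, as had the adjoining Hoxd13.

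**Figure D5:**
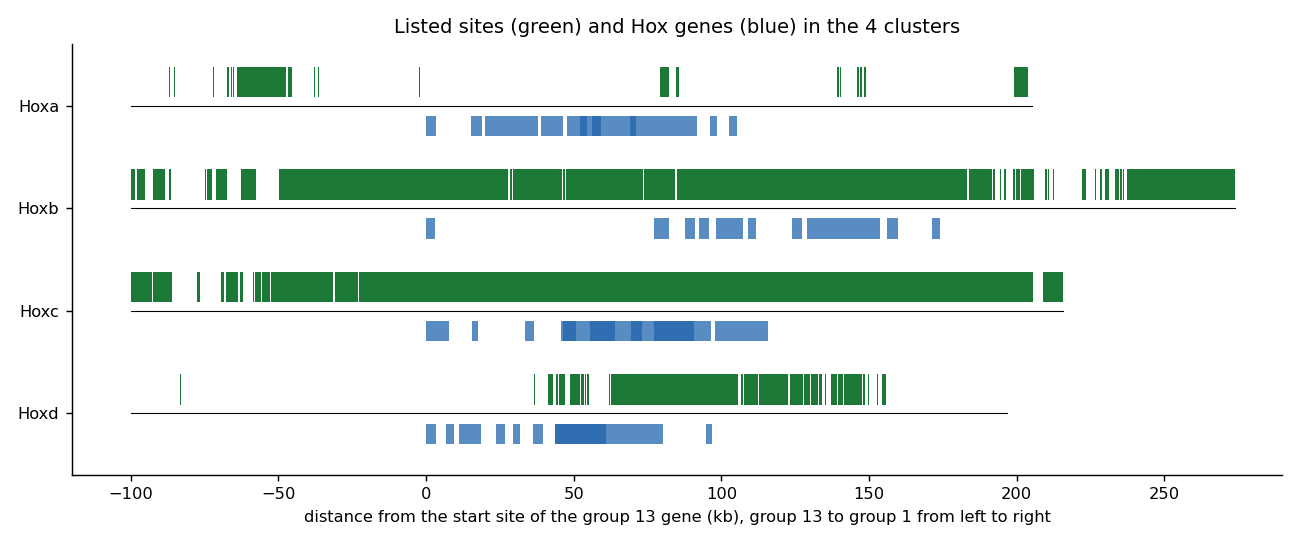
Listed sites (green, above each line) and Hox genes (blue, below) in the Hoxa, Hoxb, Hoxc and Hoxd clusters with 100 kb on either side, by distance in kb from the start of the group 13 gene, drawn from group 13 to group 1. Sites cover 3.76% of Hoxa, 98.5% of Hoxb, 100% of Hoxc and 45.7% of Hoxd, where they lie at the group 1 end.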

How the data were processed

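Of the deposited files, 1 list was used, which holds positions of H3K27me3 sites only, joined over all samples, with no score. Before deposit the authors trimmed reads, per their methods and the labels, aligned them with BWA to mm10, filtered them with SAMtools, merged replicates and called broad peaks with MACS2. Cutoffs and the rule for joining samples were not given in the sources used here. The list holds no value per sample, so the tests between time points that the design had set were not run.

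Starts were read as counted from 0, since the smallest width was then 200 bp, and positions are printed counted from 1. Genes and transcripts were those of GENCODE M21 (GRCm38), and sequence was that of GRCm38.p6. Exon, coding and untranslated parts are unions over all transcripts of a gene. An overlap of 1 bp sufficed. CpG islands were segments of repeat-masked sequence (17 for a CpG, -1 otherwise) that reached 200 bp, 50% GC and a CpG ratio of 0.6. Patches of the assembly can draw reads away from a chromosome. With minimap2 2.31-r1302, 0 stretches of the interval with 1000 identical bp were placed on the 217 sequences outside the chromosomes. Whether reads were lost in this way was not tested.

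Python 3.11.15 with numpy 2.4.6 was used, and the interval functions were tested on simulated data. The genes named were the 10 members, other genes of the interval with a site within 1 kb of a start, and genes of the same paralog groups in the other Hox clusters. Members and gene lists were chosen with earlier results of these data known. Those lists held Lnpk and Mtx2 as neighbours of the cluster and Evx1 as the paralog of Evx2. Gm28230, Mir10b and Mir10a lie outside these rules and were chosen after their values were seen.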

Additional observations from a re-analysis of the deposited data

How the results depend on the processing

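No paired analysis was possible because the list used joins all samples and carries no replicate number, and no library could be left out of it. Values per library were not analysed here. The covered share of the interval, 29.0%, was 28.0% and 26.9% when sites narrower than 500 or 1000 bp were left out, 31.7% and 34.7% when neighbours closer than 1000 or 3000 bp were merged, and 41.0% with flanks of 50 kb. For the Hoxd cluster, 45.7%, these filters and merges gave 43.6%, 41.9%, 47.8% and 50.7%. The number of sites, 28, became 14 without those narrower than 1000 bp, 10 and 4 with the merges and 45 with flanks of 200 kb, as fewer or more sites enter by construction. CpGs per kb outside masked repeats were 37.3 in the uncovered end and 25.0 in the covered bases from Hoxd8 to Hoxd1. Between 3 and 4 of the 10 genes had a nearby site under all 9 alternatives run for that count. Hoxd8 dropped out when sites narrower than 500 or 1000 bp were left out and where 50% of the window had to be covered, Hoxd4 where the start itself had to be covered. Without sites narrower than 500 or 1000 bp, the first site of the cluster began at 74709438, beyond the end of Hoxd8. The coding sequences of Hoxd8 and Hoxd4 stayed at 0% and those of Hoxd3 and Hoxd1 at 100% under the 5 alternatives for them, which were chosen after seeing the data. Without depth, a missing site cannot be told from one below the threshold of the peak caller.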

Other observations

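Outside the interval the asymmetry between the sides of the cluster continued. The next 200 kb beyond the Hoxd1 side (chr2:74865143-75065142), past Mtx2, held 35 sites of 275 to 16783 bp that covered 72.9% of bases, and 87.2% from the first of these sites onward. The 200 kb beyond the Evx2 side (chr2:74352991-74552990) held 4 sites of 221 to 462 bp that covered 0.636%. Both sides of the cluster are known to contain long-range enhancers of Hoxd genes, those for digits and genitalia on the Evx2 side and those for the proximal limb on the Hoxd1 side.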
